A study of Neurospora crassa OR74A and Aspergillus nidulans FGSC A4 with 22 samples.

Results

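The genes described here encode 5 enzymes that lead from acetate to sugar in *N. crassa* and *A. nidulans*, namely isocitrate lyase, malate synthase, acetyl-CoA synthetase, PEP carboxykinase and fructose bisphosphatase. They were chosen by enzyme and locus number, 1 gene per enzyme and species, which gave 10 of 20178 genes, 5 of 9582 in the *N. crassa* table and 5 of 10596 in the *A. nidulans* table. All 10 were measured and passed the filter on low values, a mean of both groups of at least 10. RNA was sequenced from hyphae of wild-type *N. crassa* OR74A that had grown for 16 h in 2% sucrose at 25°C and were then washed and held for 4 h in 2% Avicel, a crystalline cellulose, or in medium with no added carbon source. Wild-type hyphae of *A. nidulans* FGSC A4 had grown for 16 h in 1% glucose at 37°C and were held for 6 h in 2% Avicel or without carbon. Both species were shaken in constant light, no strain carried a transgene or a deletion, and each of the 4 groups had 3 libraries.

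Fungi that live on acetate or fatty acids enter carbon into metabolism as acetyl-CoA. Acetyl-CoA synthetase makes acetyl-CoA from free acetate. Isocitrate lyase and malate synthase form the glyoxylate cycle, a bypass of the citric acid cycle that skips its decarboxylating steps and so lets acetyl units build up to dicarboxylic acids. PEP carboxykinase turns oxaloacetate from that pool into phosphoenolpyruvate, and fructose bisphosphatase releases fructose phosphate near the end of gluconeogenesis, the path back to sugar. In fungi these genes are textbook cases of control by carbon source, low on glucose and high on acetate.

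The files give 1 value per gene and group, the mean over 3 libraries of counts divided by the size factor of each library, called the authors' mean here. The tables analysed here give no values of single libraries, so the authors' means of the 10 genes stand without a standard deviation and no test was made on them. For part of the genes with authors' means between 100 and 1000, the reads of each library could be worked out. In each library a single read adds the same amount to every mean, and for these genes only 1 set of whole reads gives the value in the file. Among the 10 genes it was tried only for the lowest means, those of *acu-3*, *fbp-1* and AN5634, and did not work. For example, 21 sets of whole reads gave the mean of *acu-3* on Avicel and 69 that of AN5634 without carbon. The size factors corresponded to an estimated 9.67 to 112 M counted reads per *N. crassa* library and 37.7 to 48.3 M per *A. nidulans* library. The *N. crassa* Avicel library with 9.67 M reads stood apart, with a median deviation of 0.53 on the log2 scale from the mean of the other libraries of its group, against 0.27 and 0.30 for those. In so shallow a library these genes have few reads, and the part of counting error in its deviation was not tested. The *N. crassa* means could not be recomputed without this library.

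The median standard deviation of log2 values between libraries was 0.33 on Avicel and 0.31 on no carbon in *N. crassa*. It rests on 2317 of 2319 genes with means of 100 to 1000 on Avicel, but on no carbon on only 551 of 2387 (23.1%). In *A. nidulans* it was 0.19 and 0.28, over 2566 of 2886 and 1997 of 2764 genes. For a gene of median standard deviation the log2 ratio then had a standard error of 0.26 (*N. crassa*) or 0.19 (*A. nidulans*), and for a gene at the 90th percentile 0.70 or 0.48. They serve below as a yardstick, and since the genes of interest have authors' means above 1000 the yardstick is not their own error. Reads were worked out in both groups for 444 *N. crassa* and 1565 *A. nidulans* genes. The 3 Avicel libraries lay fully apart from the 3 no carbon libraries in 20.7% and 39.3% of these. At log2 ratios of 1.6 or more in size, the libraries lay apart in 6 of 9 genes in *N. crassa* and in 26 of 31 in *A. nidulans*. At sizes between 0.4 and 0.7 they lay apart in 34.1% of 88 *N. crassa* genes and 59.3% of 371 *A. nidulans* genes.

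**Figure D1:**
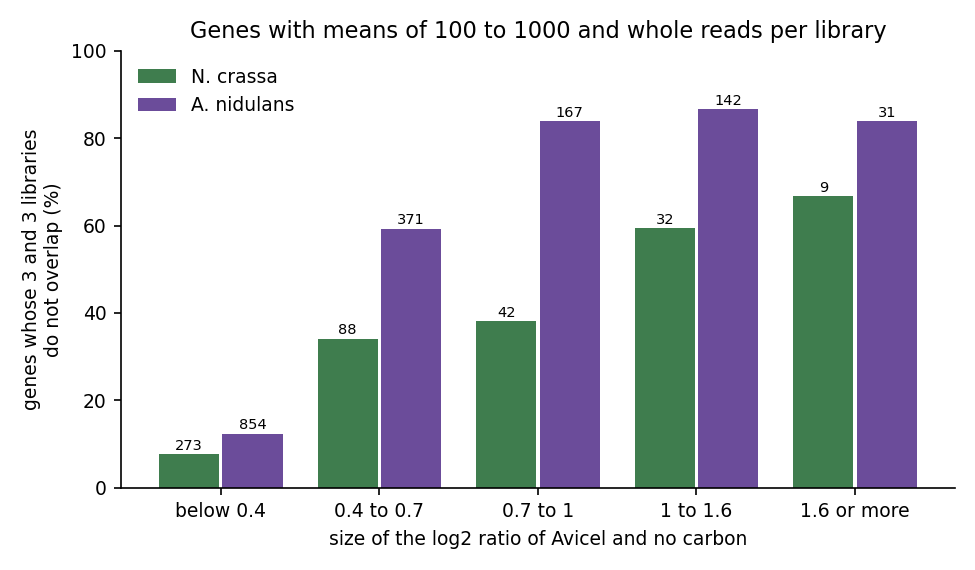
Share of genes, in percent, whose 3 Avicel and 3 no carbon libraries did not overlap, by the size of the log2 ratio, with the number of genes above each bar. Only genes with authors' means of 100 to 1000 and 1 set of whole reads in both groups are shown. In *A. nidulans* the share was 59.3% already between 0.4 and 0.7, where it was 34.1% in *N. crassa*.

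The carbon source labels were checked by the cellobiohydrolase genes *cbh-1* (NCU07340) and *cbhA* (AN5176), whose log2 ratios of Avicel over no carbon were 10.24 and 8.94. Genes of conidiation were listed as markers of spores and spore-bearing cells in cultures labelled as hyphae, and were not at 0 in any group. One of them, *eas*, also bears the names *bli-7* and *ccg-2*. Whether their transcripts came from spore-bearing cells was not tested. The summed authors' means of *con-10*, *con-6* and *eas* were 123588 on Avicel and 535067 on no carbon in *N. crassa*. All 3 were at least 2-fold lower on Avicel (log2 ratios from -2.15 to -1.61), against 4.74% of all genes that passed the filter. Of the 3 *A. nidulans* genes listed for conidiation (AN0973, AN1937 and AN8803), 2 were at least 2-fold lower on Avicel, against 3.42% of all genes. The log2 ratio of AN0973 was -0.79. The summed authors' means of the 3 genes were 103913 on Avicel and 219885 on no carbon. Whole cultures were sequenced, so fewer cells of a type and less RNA per cell cannot be told apart. The part of conidiating cells in the values below was not tested.

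Isocitrate lyase, the enzyme that splits isocitrate and opens the glyoxylate cycle, was lower on Avicel than without carbon in *N. crassa* and higher in *A. nidulans*. The authors' mean of *acu-3* (NCU04230), the *N. crassa* isocitrate lyase gene, was 3382 on Avicel and 16823 without carbon. The level on Avicel was thus 4.97-fold lower (log2 ratio -2.31). In *A. nidulans* the authors' mean of AN5634 was 3143 on Avicel and 2051 on no carbon, a log2 ratio of 0.62. Of the 8782 *N. crassa* genes that passed the filter, 33 had a log2 ratio as low as that of *acu-3* or lower, which is 0.376%. A ratio as high as that of AN5634 or higher was found for 17.0% of 9719 *A. nidulans* genes. The log2 ratio of *acu-3* was larger in size than the standard error of either kind of gene in the yardstick, whereas the 0.62 of AN5634 was above the 0.19 of a typical gene and little above the 0.48 of a variable one.

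Malate synthase, which joins glyoxylate with acetyl-CoA to malate, followed isocitrate lyase in each species. Its *N. crassa* gene *acu-9* (NCU10007) had an authors' mean of 7081 on Avicel and 28551 on no carbon, and was thus 4.03-fold higher without carbon (log2 ratio -2.01). Only 57 *N. crassa* genes, or 0.649%, had a ratio as low or lower. The *A. nidulans* gene AN6653 had an authors' mean of 14784 on Avicel and 9419 on no carbon, a log2 ratio of 0.65. Between the glyoxylate cycle genes of a species the log2 ratios differed by 0.30 in *N. crassa* and by 0.03 in *A. nidulans*. The 0.30 was close to the standard error of a single typical ratio, 0.26. Summed over both genes, the glyoxylate cycle held 0.0182% of the counts of the Avicel group and 0.108% of those of the no carbon group in *N. crassa*. The shares of the *A. nidulans* pair were 0.0384% and 0.0271%.

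**Figure D2:**
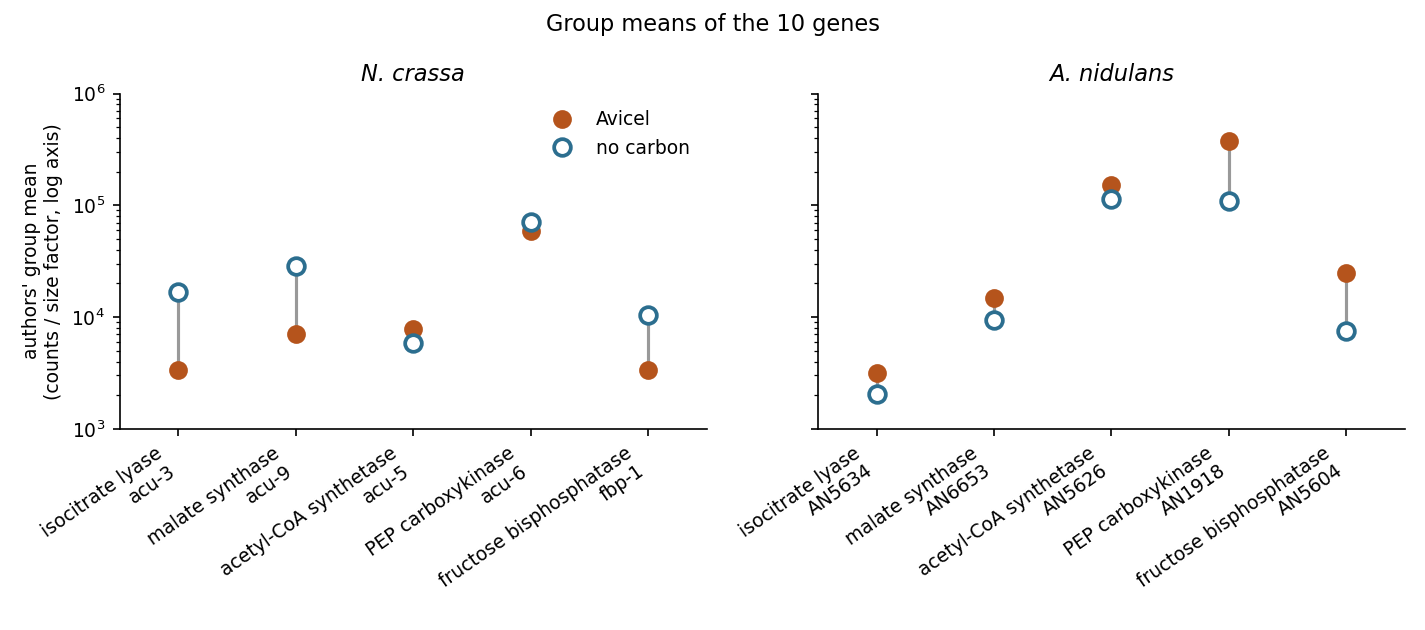
Authors' group means of the 10 genes (counts divided by size factors, log axis) on Avicel (filled) and without carbon (open), with a line joining the groups of a gene. In *N. crassa* the open points lie well above the filled ones for *acu-3*, *acu-9* and *fbp-1*, whereas in *A. nidulans* the filled point is the higher one for all 5 genes. The panels were normalized separately, so levels are not compared between them.

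Acetyl-CoA synthetase, the entry point of free acetate, differed little between the carbon sources. The authors' mean of *acu-5* (NCU06836) was 7771 on Avicel and 5871 on no carbon, a log2 ratio of 0.40, which turned to -0.05 once both groups had been scaled to the same sum over all genes (equal sums). The authors' mean of AN5626 was 153015 on Avicel and 112991 on no carbon, a log2 ratio of 0.44. A ratio this high or higher was found for 20.3% of *N. crassa* genes and 22.8% of *A. nidulans* genes. In *N. crassa* it is thus the member whose direction depended on the scaling, and the only one of the 5 that was higher on Avicel as deposited.

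The log2 ratios of the gluconeogenesis genes differed between the species. Only for fructose bisphosphatase, described below, were the ratios of both species larger in size than the standard error of a variable gene. PEP carboxykinase, whose *N. crassa* gene *acu-6* (NCU09873) also bears the names *con-3* and *pck-1*, had authors' means of 58505 on Avicel and 70362 on no carbon in that species. The log2 ratio of *acu-6* was -0.27, about the standard error of a typical gene. Its *A. nidulans* counterpart AN1918 had an authors' mean of 373961 on Avicel and 109768 on no carbon, 3.41-fold higher on Avicel (log2 ratio 1.77). AN1918 alone held 0.801% of the counts of the Avicel group and 0.259% of those of the no carbon group.

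Fructose bisphosphatase showed the widest contrast between the species among the 5 enzymes. The authors' mean of *fbp-1* (NCU04797) was 3344 on Avicel and 10405 on no carbon, 3.11-fold higher without carbon (log2 ratio -1.64). Its ratio was among the lowest 1.16% of *N. crassa* genes. In *A. nidulans* the authors' mean of AN5604 was 25026 on Avicel and 7425 on no carbon, 3.37-fold higher on Avicel (log2 ratio 1.75). The ratios of AN5604 and AN1918 lay next to each other, with 3.97% and 3.87% of *A. nidulans* genes as high or higher.

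Counted together, 3 of the 5 *N. crassa* genes (*acu-3*, *acu-9* and *fbp-1*) were at least 2-fold lower on Avicel, a limit passed in that direction by 4.74% of 8782 genes, and 0 were at least 2-fold higher, against 7.64% of all. In *A. nidulans* 2 of 5 (AN1918 and AN5604) were at least 2-fold higher, against 9.38% of 9719 genes, and 0 were at least 2-fold lower, against 3.42% of all. The median log2 ratio was -1.64 over the *N. crassa* genes and 0.65 over those of *A. nidulans*, where the medians of all tested genes were -0.01 and -0.03. With equal sums the same 3 *N. crassa* genes were past the limit, but the background in that direction was 13.8% of genes, as 1208 were then lower and 388 higher in place of 416 and 671. The 5 genes together held 0.140% of the counts of the *N. crassa* Avicel group and 0.316% of those without carbon. For *A. nidulans* these shares were 1.22% and 0.570%. With 5 genes per species and no values per library, these counts are a description.

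**Figure D3:**
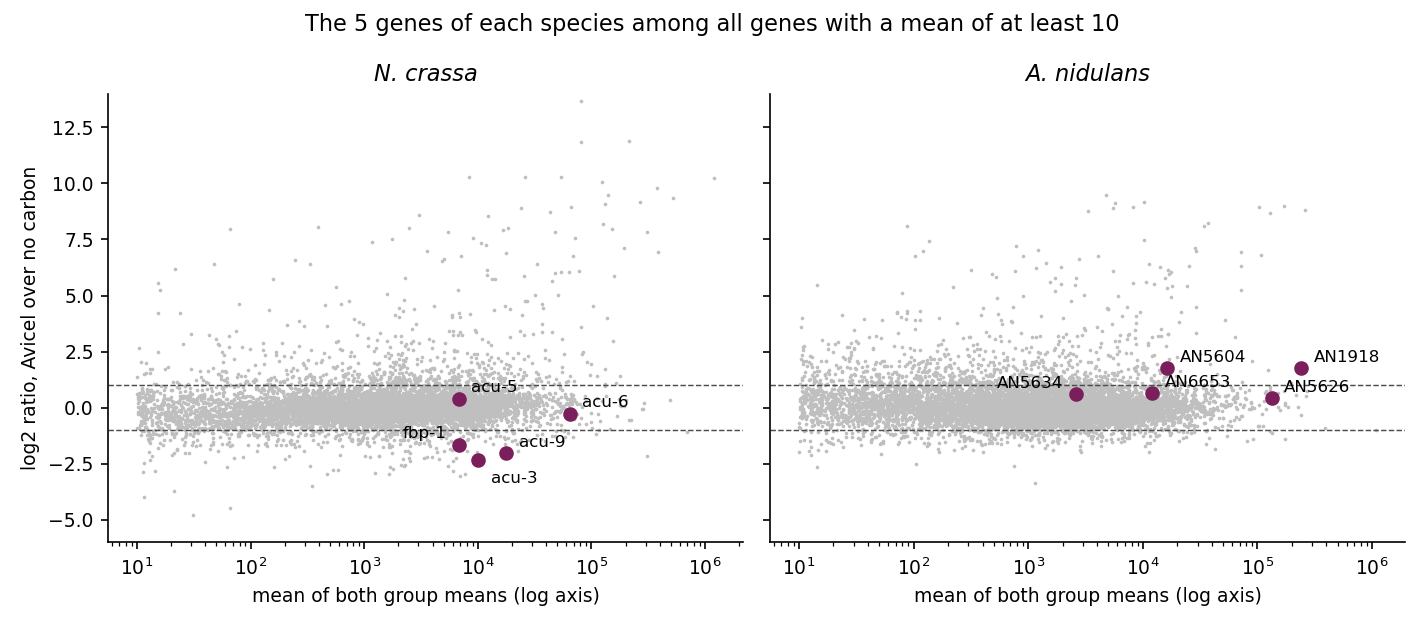
Log2 ratio of Avicel over no carbon against the mean of both group means (log axis) for all genes with a mean of at least 10 (grey) and the 5 genes of each species (purple), with dashed lines at a 2-fold difference. In *N. crassa*, *acu-3*, *acu-9* and *fbp-1* lie under the lower line, and in *A. nidulans*, AN1918 and AN5604 lie over the upper line.

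Levels of different *N. crassa* genes were compared per kilobase of gene span, which includes introns. On Avicel, *acu-6* was first with an authors' mean of 16735 per kb, followed by *acu-9* (2437), *acu-5* (2148), *fbp-1* (1756) and *acu-3* (1157). On no carbon the order was *acu-6* (20127), *acu-9* (9828), *acu-3* (5755), *fbp-1* (5465) and *acu-5* (1623). Isocitrate lyase was thus last of the 5 genes on Avicel and in the middle without carbon, while acetyl-CoA synthetase was in the middle on Avicel and last without carbon. Among all *N. crassa* genes ranked per kb, *acu-3* was at percentile 66.5 on Avicel and 93.9 on no carbon and *fbp-1* at 76.4 and 93.5. The neighbours *acu-9* and *acu-5* on Avicel, *acu-5* and *fbp-1* on Avicel and *acu-3* and *fbp-1* on no carbon were 0.18, 0.29 and 0.07 apart on the log2 scale. These gaps were below the standard deviation between single libraries of a typical gene. That is not the error of a gap between means of 3 libraries, so whether the order of these neighbours holds was not tested. For *A. nidulans* no gene lengths were used, so its genes are not ranked.

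Since levels are not on a common scale, the species were compared by their log2 ratios. Minimal medium, inoculum, time, temperature and preculture sugar differed between them as well. The study also calls its *N. crassa* wild-type data published and its *A. nidulans* data new. The log2 ratio was higher in *A. nidulans* by 3.39 for fructose bisphosphatase, 2.93 for isocitrate lyase, 2.66 for malate synthase and 2.03 for PEP carboxykinase. For acetyl-CoA synthetase the difference was 0.03, or 0.35 with equal sums. The combined standard error of the yardstick is 0.33 for typical genes and 0.85 for variable ones, so the first 4 differences were more than 2 times the larger value. Species and culture conditions cannot be told apart in this comparison.

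Under each of 3 other scalings the 5 *A. nidulans* genes kept their directions, as did *acu-3*, *acu-9*, *acu-6* and *fbp-1* in *N. crassa*. Every scaling adds the same shift to all log2 ratios of a table. The only upward shift in *N. crassa* was 0.01, and the largest downward shift in *A. nidulans* was -0.14. Among these genes the ratios nearest to 0 were -0.27 (*acu-6*) and 0.44 (AN5626). Shifts of this size could not turn any of these directions, so the scalings are not a check of single genes such as *acu-6*. Rescaling to equal sums moved every log2 ratio by -0.45 in *N. crassa* and by -0.14 in *A. nidulans*. It brought *acu-3* to -2.77, *acu-9* to -2.47, *fbp-1* to -2.09 and *acu-6* to -0.72. Relative to that shift the order of the genes is the same, since the shift is common to a table.

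**Figure D4:**
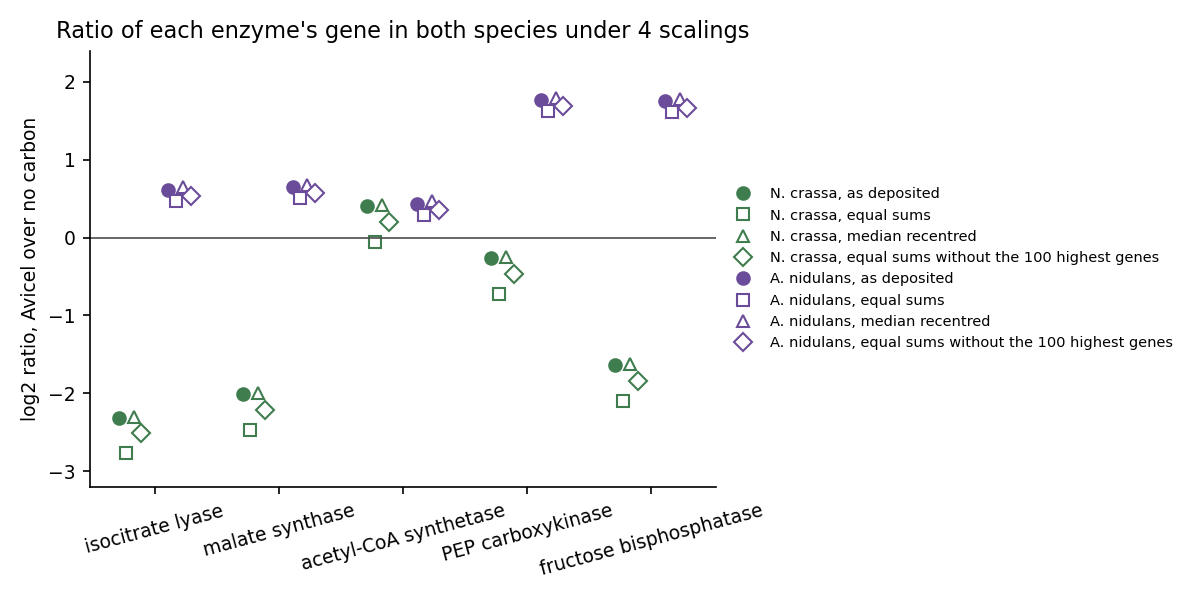
Log2 ratio of Avicel over no carbon for each enzyme's gene in *N. crassa* (green) and *A. nidulans* (purple), as deposited (filled) and under 3 other scalings (open). All but acetyl-CoA synthetase have points below 0 in *N. crassa* and above 0 in *A. nidulans* under each scaling.

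Of 13 related *N. crassa* genes around the pathway, 1 was at least 2-fold higher on Avicel, 0 were at least 2-fold lower and 12 lay within 2-fold, with a median log2 ratio of 0.21. Of all tested genes 7.64% were higher, 4.74% lower and 87.6% within 2-fold, so the list was close to the background. With equal sums 0 were higher, 2 were lower (*tca-3* and *tca-14*) and 11 lay within 2-fold, where 81.8% of all genes did, and the median was -0.24. As deposited, the gene past the limit was *cit-1* (NCU01692), a citrate synthase gene of the citric acid cycle, with authors' means of 23928 on Avicel and 10404 on no carbon (log2 ratio 1.20, or 0.75 with equal sums). The log2 ratio of *acu-3*, whose product draws on the isocitrate made from citrate, minus that of *cit-1* was -3.52. The transcriptional activator gene *acu-15* (NCU06656), required for growth on acetate, had authors' means of 42201 on Avicel and 39032 on no carbon, and its log2 ratio of 0.11 turned to -0.34 with equal sums and to -0.09 when the 100 highest genes were left out of the sums. The carbon catabolite repressor gene *cre-1* (NCU08807) had a log2 ratio of 0.56, or 0.11 with equal sums.

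The glycolytic enzymes that run against gluconeogenesis did not share the pattern of *fbp-1*. Phosphofructokinase, which opposes fructose bisphosphatase, is encoded by *emp-3* (NCU00629), whose log2 ratio was -0.07. The ratio of *fbp-1* to *emp-3* was therefore 2.97-fold lower on Avicel, a value on which scaling has no bearing. Pyruvate kinase, which runs in the sense opposed to PEP carboxykinase, is encoded by *ace-8* (NCU06075), with a log2 ratio of 0.68. The ratio of *acu-6* to *ace-8* was 1.93-fold lower on Avicel.

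The 16 *N. crassa* genes that bear a *tca* symbol, after the citric acid cycle, all lay within 2-fold as deposited, as did 87.6% of all genes, with log2 ratios from -0.71 to 0.40 and a median of -0.10. With equal sums 13 lay within 2-fold and 3 were lower on Avicel, near the 13.8% of all genes that were then lower. These were *tca-4* at -1.16, *tca-3* at -1.05 and *tca-14* at -1.01. As deposited, *tca-3* (NCU02366), the aconitase gene, was at -0.60, and *tca-14* (NCU10008), the neighbour of *acu-9* on its chromosome, at -0.55. The authors' mean of *tca-14* was 17966 on Avicel and 26342 on no carbon. Of the 6 genes that bear an *acu* symbol, 2 were at least 2-fold lower on Avicel as deposited, against 4.74% of all genes. These were *acu-3* and *acu-9*, the glyoxylate cycle genes already counted above. As *acu-5* and *acu-6* are also on both lists, the *acu* list is not a separate set. The acetyl-CoA hydrolase gene *acu-8* (NCU09770) had the highest log2 ratio of these 6, at 0.94, with authors' means of 5095 on Avicel and 2647 without carbon.

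In *A. nidulans* 20 related genes were on the list, and 1 of them was at least 2-fold higher on Avicel, 0 at least 2-fold lower and 19 within 2-fold, with a median log2 ratio of 0.15. Among all *A. nidulans* genes 9.38% were higher, 3.42% lower and 87.2% within 2-fold, so this list too was close to the background. The gene past the limit was *maeA* (AN6168), a malic enzyme gene whose product takes malate to pyruvate, with authors' means of 32756 on Avicel and 6912 on no carbon (log2 ratio 2.24). The list was drawn up by expected role and includes regulators, transfer into mitochondria, enzymes around the citric acid cycle and opposed glycolytic steps. No annotation was at hand to check the roles of the other 19, so they are given by locus number. The next highest log2 ratios were those of AN7287, AN7468 and AN0689, at 0.95, 0.92 and 0.82. Each was above the ratios of the glyoxylate cycle genes AN5634 and AN6653, but whether these gaps hold was not tested. The lowest was that of AN5356, at -0.40. Among its genes only *maeA* had a higher log2 ratio than AN1918 (1.77) and AN5604 (1.75).

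**Figure D5:**
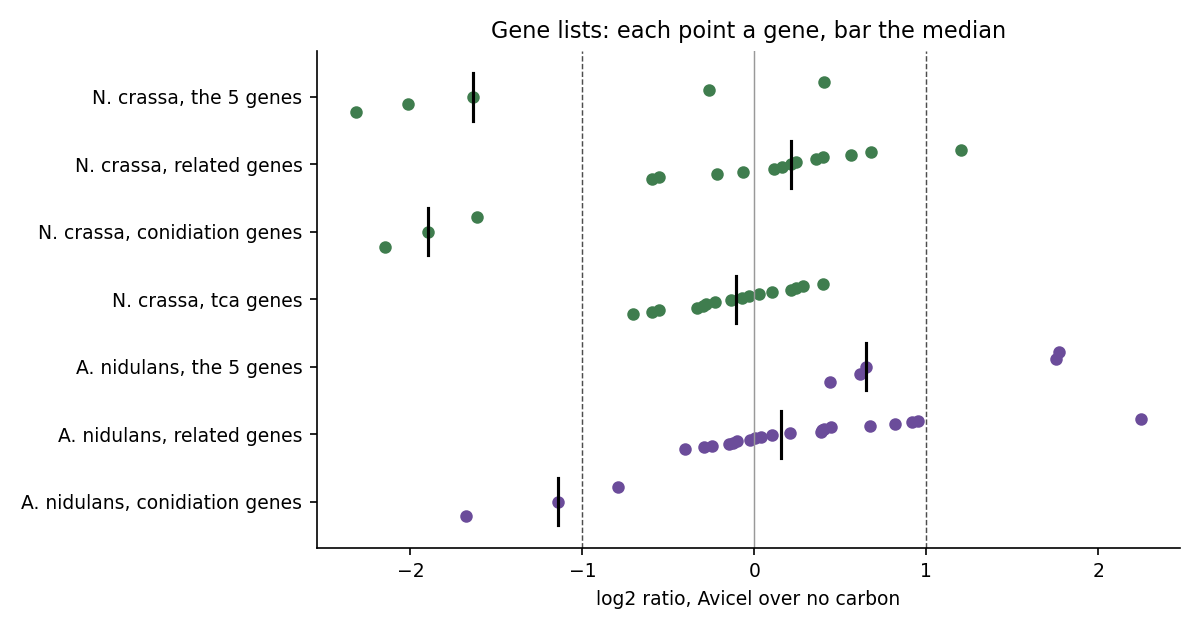
Log2 ratio of Avicel over no carbon for each gene (point) of the lists and the median of a list (bar), with dashed lines at a 2-fold difference. As deposited, the 16 *tca* genes lie between -0.71 and 0.40, inside the dashed lines (3 are past the lower one with equal sums), while 3 of the 5 *N. crassa* genes lie to the left of them and 2 of the 5 *A. nidulans* genes to the right.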

How the data were processed

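RNA from 22 samples belongs to the series, and the values rest on 12 of them, wild-type *N. crassa* and *A. nidulans* on Avicel or no carbon, 3 libraries a group. The other 10, of mutant strains, were not analysed here. The authors mapped reads with TopHat 2.0.4 to predicted transcripts, used HTSeq to count those on unique exons and scaled the counts with DESeq size factors. In the deposited signal values, 1 table per species, the scaled counts are averaged over the 3 libraries of a group. For HTSeq and DESeq the version, and for the genome the build, is not given in the sources used here. The authors' own fold changes and p-values in the same tables were not used. Libraries were not stated to be stranded.

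The log2 of the Avicel mean over the no carbon mean was taken without a pseudocount (Python 3.11.15, numpy 2.4.6, pandas 2.3.3), and figures were drawn with matplotlib 3.10.9. No test was possible on means. A gene counted as past the limit at a 2-fold difference, among genes with a mean of both groups of at least 10. Each library's size factor and reads were worked out from the steps of low means, which carry up to 10 significant digits, for genes with means of 100 to 1000 and 1 solution. In 300 simulated means per group this gave back the right reads for 225 of 226 and 153 of 153 means with 1 solution in *N. crassa* on Avicel and no carbon, and for 290 of 290 and 220 of 223 in *A. nidulans*. Intervals for counting error were not computed for means. The study describes its replicates as biological. A size factor could not be matched to a labelled replicate.

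Symbols and gene spans of *N. crassa* came from RefSeq (NC12). Enzymes of the 10 genes follow the list by which they were chosen. Named were those 10, related genes of the pathway, opposed glycolytic steps, conidiation genes and 1 cellobiohydrolase gene per species. The *tca* and *acu* symbols, *acu-8* and NCU03651 were chosen once their values were known. A search of gene products for further related genes could not be made with the gene table used. The members and lists were chosen with earlier results of these data known. Alternatives were 3 scalings, a pseudocount of 10, fold limits of 1.5 and 4, no filter, and a filter at a mean of 100.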

Additional observations from a re-analysis of the deposited data

How the results depend on the processing

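The counts of *N. crassa* genes past the limit (3 lower, 0 higher) stayed within 1.5 times under all alternatives, with 2 lower at the 4-fold limit. In *A. nidulans* the count of genes higher on Avicel was 2 at the 2-fold limit, 4 at a 1.5-fold limit and 0 at a 4-fold limit, by construction of the limit, and the other alternatives left it at 2. The lowest authors' mean of the 10 genes was 2051 (AN5634 without carbon). The filters and the pseudocount could therefore not change these counts in either species. Differences between the species moved by less than 0.33, the combined standard error of typical genes, under each scaling and the pseudocount. A scaling moves all 5 differences by the same amount, so this is not a check of each enzyme. With equal sums the difference for acetyl-CoA synthetase went from 0.03 to 0.35. The background moved more. With equal sums, *N. crassa* genes at least 2-fold lower went from 416 to 1208 and those higher from 671 to 388, and leaving the 100 highest genes out of the sums gave 638 lower. In *A. nidulans* equal sums gave 508 lower in place of 332. At a 1.5-fold limit 1094 *N. crassa* genes were lower and 1211 higher, against 1177 and 1742 for *A. nidulans*. At a 4-fold limit the counts were 57 and 243, and 6 and 302. No paired analysis was possible because the tables hold group means only, and for the same reason no replicate could be left out. The shallow *N. crassa* Avicel library, at 9.67 M reads, enters each *N. crassa* mean on Avicel with the same weight as the others, and its part in the values was not tested.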

Other observations

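Malic enzyme takes malate to pyruvate and so draws on the pool fed by malate synthase. RNA of a malic enzyme gene was higher on Avicel in both species. The study pairs *maeA* (AN6168) with NCU03651, and that gene was looked up after the value of *maeA* had been seen. The authors' mean of NCU03651 was 22812 on Avicel and 8449 on no carbon, a log2 ratio of 1.43, against 2.24 for *maeA*. With equal sums NCU03651 was at 0.98, under the 2-fold limit, and *maeA* at 2.10. In *N. crassa* NCU03651 and *acu-9* thus had ratios of opposite sign. The study put *maeA* on a list of genes chosen on these samples, so its direction is not independent evidence.

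The neighbour of *fbp-1* on its chromosome, NCU04796, had an authors' mean of 9888 on Avicel and 24096 on no carbon, a log2 ratio of -1.29, next to the -1.64 of *fbp-1*. The other neighbour, NCU04798, was at 0.14. The spans of these genes do not overlap that of *fbp-1* in RefSeq. No other neighbour of the 5 *N. crassa* genes that has a value was past the 2-fold limit.

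The conidiation gene AN1937 was low enough for its reads in single libraries to be worked out. On Avicel its normalized counts were 124, 140 and 307, and without carbon 293, 371 and 1160, so that the highest Avicel library overlapped the lowest no carbon library although the log2 ratio of the means was -1.67.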
